A study of Homo sapiens with 8 samples.

Results

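The baseline transcriptome of RD control cells was described from the 4 control libraries of a series of 8. RD is an established human line from a rhabdomyosarcoma, a soft tissue tumour of the skeletal muscle lineage. Members were chosen by their sample titles alone: the control cells carried a short hairpin RNA of scrambled sequence, and no measured value entered the choice. The other 4 libraries carried a hairpin against the homeobox transcription factor PROX1 and were not used. All cells were grown in high-glucose DMEM with 10% fetal bovine serum, and total RNA was made into libraries with a kit that keeps strand information. The series design calls the 4 samples biological replicates. The labels do not say whether they came from separate cultures, so spreads and tests below measure the variation between these samples, which may be technical in part. A scrambled hairpin is itself a delivered construct, and untreated RD cells were not among the samples.

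Rhabdomyosarcoma cells carry the regulators that commit a cell to skeletal muscle but keep dividing instead of completing differentiation. MYOD1 and MYF5 are the determination factors of that lineage. MYOG acts later and switches on the genes of the contractile apparatus, and PAX7 marks the muscle stem cell. Desmin (DES) is the intermediate filament of muscle, and the receptor FGFR4 is a known target of PAX transcription factors in this tumour. In these bulk samples, fewer cells with a transcript and less of it per cell cannot be told apart.

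The libraries held 4245571, 4055205, 4134308 and 4865161 counts over genes in replicates 1 to 4. A level is given in counts per 1000000 counts of the library (CPM), as mean ± SD (n = 4) unless a value per library is given. Where levels of different genes are compared, transcripts per 1000000 (TPM) is used, which divides by the exon length of the gene and leaves small structural RNA genes out of the total. A gene without a read can still have had as many as 3 expected, a floor of 0.617 to 0.740 CPM in a single library and to 0.173 CPM over the 4, for counting error only. Replicate 1 stood apart from the others in its counts of mitochondrial mRNA and of small nuclear and small nucleolar RNA, and in transcripts of extreme length. Without it the spread between libraries, as edgeR's biological coefficient of variation, fell from 7.65 to 5.74%, while the count of expressed genes, at 12913 with all 4, was 13083. Its values for these transcripts are given with the account of the spread.

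A gene was taken as expressed at 1 CPM or more in each of the 4 libraries. 12913 of 58302 genes met this, of which 11662 were protein-coding (58.8% of the 19817 protein-coding genes) and 784 were long non-coding. Another 7141 protein-coding genes, 36.0%, stayed under 1 CPM in every library, and 3999 of them had no count at all. The remaining 1014 passed in some libraries only. Levels fell off steeply: 9501 protein-coding genes averaged 10 CPM or more, 2429 reached 100, and 66 reached 1000. The 100 most abundant genes took 16.3 ± 0.546% of counts. Between 1067 and 1130 genes made up the more abundant 50% of the counts in each library.

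The most abundant transcript was RN7SL2, an RNA of the signal recognition particle that docks ribosomes at the endoplasmic reticulum, at 18578, 19074, 16648 and 9707 CPM. Replicate 4 was well below the other 3. COL3A1, the chain of fibrillar type III collagen, was the most abundant protein-coding transcript, at 11388, 10764, 10739 and 10678 CPM, with all libraries within a few percent of their mean of 10892 ± 333. Next came the elongation factor EEF1A1 at 7330.1 ± 289 CPM and the glycolytic enzyme GAPDH at 4388 ± 112. GAPDH shares 14.2% of its exon bases with another gene, all on the opposite strand. Such shares, here and below, count both strands together. The chaperones HSPA8 (3774 ± 96.5), HSP90B1 (2947 ± 48.3) and HSPD1 (2178 ± 52.8) stood with the elongation factor EEF2 (3309.7 ± 109) and the ribosomal stalk protein RPLP0 (2731 ± 146) among the top 10 genes. ENO1 of glycolysis completed that group at 2074 ± 92.4 CPM. Ranks 11 to 25 held the nucleolar protein NPM1, the collagen COL5A2, the prolyl isomerase PPIA, LDHB (33.4% of exon bases shared) and PKM of glucose metabolism, TMSB4X, tenascin (TNC), HSP90AB1, RPS18, the actins ACTG1 and ACTB, tubulin TUBB (16.0% shared), RPL13A (17.3% shared), RPL4 and RPL41. Their means lay between 1538 CPM for RPL41 and 1994 for NPM1.

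**Figure D1:**
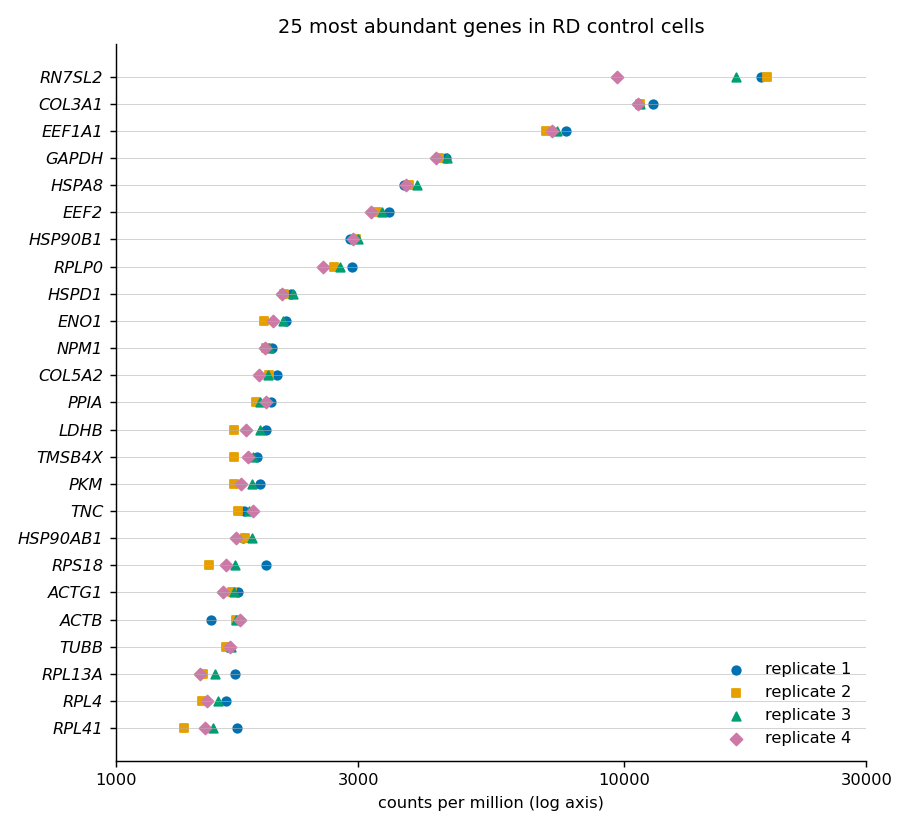
CPM (log axis) of the 25 genes with the highest mean, with a marker for each of the 4 control libraries. RN7SL2 runs from 9707 to 19074 CPM, while the 4 values of COL3A1 lie between 10678 and 11388 and those of TUBB nearly coincide.

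Per length the order changed. Thymosin TMSB10, a small actin-binding protein encoded by a short transcript, was highest among protein-coding genes at 7022 TPM, followed by COL3A1 (6579), GAPDH (6055) and RPL41 (5812). Histone genes took 7 of the next places down to rank 15, namely H3C2 (5365 TPM), H4C4 (5283), H2BC1 (4880.1), H3C3, H3C7, H4C3 and H1-2 (3528). EEF1A1, RPS12, TMSB4X and RPS18 filled the other places. Replication-dependent histone messages end in a stem loop without a poly(A) tail, and 56 of 71 histone genes were expressed. H2BC1, whose protein is known as an H2B of the testis, was the histone gene with the most counts, at 645, 603, 614 and 587 CPM, and shared no exon base with any other gene. Its divergent neighbour H2AC1 was at 187 ± 15.3 CPM. Copies of core histone genes are close in sequence, so counts of single members are uncertain.

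Genes were then summed by class. Cytosolic ribosomal proteins took 6.20, 5.46, 5.83 and 5.63% of counts in replicates 1 to 4, translation factors 2.40 ± 0.0532%, chaperones 2.26 ± 0.0321%, cytoskeletal genes 1.78 ± 0.0422% and glycolytic genes 1.31 ± 0.0458%. Collagens took 1.61 ± 0.0384%, most of it from COL3A1, and replication-dependent histones 1.42 ± 0.0654%. The thick filament, thin filament and Z-disc genes of striated muscle together took 0.519 ± 0.0170%, less than the proteasome at 0.914 ± 0.0201%. Per length, histones were 9.68% and ribosomal proteins 8.58% of TPM, while collagens, which are long, were 0.901%.

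Messages of the translation apparatus are known for a TOP start: a cytosine at the cap followed by an unbroken run of pyrimidines, which ties their translation to growth signals. The RefSeq promoter table (GRCh38.p14) held a window for 15266 of 19759 protein-coding genes, taken at the outermost listed start. A C followed by at least 4 bases of C or T stood at the start in 45 of 70 (64.3%) ribosomal protein genes, in 12 of 54 (22.2%) translation factors and in 709 of 15266 (4.64%) of all genes. Among the 100 most abundant genes with a window, 22 of 76 had it. The starts of 6 abundant members are shown because they carry this feature, with 10 bases before and 20 from the start base and the pyrimidine run in capitals. A start of GAPDH, an abundant gene whose listed start is not a C, is shown beside them. The listed starts of GAPDH and EEF1A1 lie inside the annotated genes, which begin at chr12:6533927 and chr6:73523797. Which start most transcripts use was not measured.
EEF1A1 (chr6:73521013-73521042, minus strand): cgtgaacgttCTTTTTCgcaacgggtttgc
EEF2 (chr19:3985444-3985473, minus strand): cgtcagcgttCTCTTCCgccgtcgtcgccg
RPLP0 (chr12:120201092-120201121, minus strand): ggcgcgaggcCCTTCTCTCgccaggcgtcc
RPS18 (chr6:33272065-33272094, plus strand): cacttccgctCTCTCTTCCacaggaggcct
RPL13A (chr19:49487598-49487627, plus strand): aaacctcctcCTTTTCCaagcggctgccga
RPL41 (chr12:56116623-56116652, plus strand): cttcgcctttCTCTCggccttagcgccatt
GAPDH (chr12:6535254-6535283, plus strand): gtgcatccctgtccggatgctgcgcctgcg

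The rest of the promoter was described by level. TATAAA was found in 586 of 2686 (21.8%) promoters of genes without a count, in 262 of 5867 (4.47%) of genes at 10 to 100 CPM and in 154 of 2014 (7.65%) of those over 100 CPM, against 9.71% of all windows. GGGCGG, the core of the GC box, went the other way, from 28.7% at 0 counts and 46.9% under 1 CPM to 71.9% at 10 to 100 CPM and 70.7% over 100. CCAAT stayed between 32.6% and 41.8% in all level classes. Histone genes had TATAAA in 44 of 66 (66.7%) and CCAAT in 56 of 66 (84.8%). Motifs were searched on both strands of the 300 bases from 250 before the start, and a match is a description of letters, not a bound site. The histone gene H3C2 is shown as an example, with TATAAA in capitals.
H3C2 (chr6:26032100-26032159, minus strand, motif at -32 from the start): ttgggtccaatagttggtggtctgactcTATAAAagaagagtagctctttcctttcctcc

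All 5 markers of the label were expressed in every library. Desmin, at chr2:219418377-219426739, was at 567, 535, 549 and 531 CPM in replicates 1 to 4 (910.4 TPM, rank 130 of the protein-coding genes). MYOG (chr1:203083132-203086036) was at 124, 117, 127 and 117 CPM and MYOD1 (chr11:17719568-17722131) at 59.8, 73.5, 75.0 and 76.7 CPM. Replicate 1 was lowest for MYOD1 and the other 3 lay close together. FGFR4 (chr5:177086886-177098144) was at 166, 164, 146 and 156 CPM and PAX7 (chr1:18631006-18748866) at 41.5, 41.2, 42.1 and 43.2 CPM. Per length the order was DES, MYOG (326 TPM), MYOD1 (163), FGFR4 (135) and PAX7 (27.4). MYOD1 had 136, 169, 170.3 and 176 TPM per library and FGFR4 139.9, 141, 124 and 134. These neighbours overlapped, since replicate 1 lay lower for MYOD1 than for FGFR4, so their order does not exceed the spread, and it turned when the longest transcript stood for all exons (rank 1198 for FGFR4 and 1617 for MYOD1). The other neighbours did not overlap. None of the 5 passed the chi-square test for more spread than counting gives, which 6.26% of all tested genes passed.

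PROX1, the gene targeted in the other cells of the series, was at 20.02, 16.3, 16.7 and 21.6 CPM (8.59 TPM) in these control cells. That is a level under the median of 28.4 TPM for expressed protein-coding genes. Its spread did not pass that test either.

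The wider set of myogenic transcription factors was largely present. The background for this list and those below is all protein-coding genes. Of these 58.8% were expressed and 36.0% stayed under 1 CPM in every library, with a median of 6.46 TPM. Of the 26 myogenic factors listed, 23 were expressed and 3 stayed under 1 CPM in every library, with a median of 24.9 TPM. The most abundant per length was MSC (musculin), a repressor that opposes MYOD1, at 583 TPM and 336, 292, 283 and 288 CPM (19.6% of exon bases shared). MYOG, the inhibitor ID3 (216 TPM) and MYOD1 were among the next. The E-proteins TCF3 (129.9 TPM) and TCF12 (101), which pair with MYOD1, were in the same range. MYF5 had no count in any library. MYF6 averaged 0.290 CPM, a low level but over the floor of 0.173 CPM for the 4 libraries together. Both stayed under 1 CPM in every library, so only 2 of the 4 myogenic regulatory factors, MYOG and MYOD1, were expressed. MEOX1 was the third factor under 1 CPM in all libraries. Of the stem cell paralogs, PAX3 was at 9.34 TPM beside PAX7 at 27.4. 

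Genes of the muscle stem cell and of myoblast fusion were mostly present. Of the 21 genes listed, 18 were expressed and 1 stayed under 1 CPM in every library, with a median of 54.5 TPM. MSTN (myostatin), the secreted inhibitor of muscle growth, stood far above the rest at 1309, 1449.7, 1301 and 1364 CPM and 1977 TPM, more than desmin. The adhesion molecule JAM3 (285 TPM), the neurotrophin receptor NGFR (193; 27.1% of exon bases shared), N-cadherin CDH2 (180.0) and the FGF inhibitor SPRY1 (156) came next. The 2 fusion proteins were low: MYMK (myomaker) was at 3.30, 3.70, 3.87 and 2.88 CPM and MYMX (myomixer) at 5.18, 4.44, 5.32 and 5.34 CPM, the latter 24.7 TPM because its transcript is short. CALCR, the calcitonin receptor of quiescent stem cells, had no count, and VCAM1 averaged 0.590 CPM.

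The contractile apparatus was represented by embryonic, slow and fast forms, depending on the protein. Of the 25 thick filament genes listed, 16 were expressed and 7 stayed under 1 CPM in every library. Their median of 6.08 TPM and their share expressed were near those of all protein-coding genes, 6.46 TPM and 58.8%. The light chains of fast muscle MYL1 (435 TPM) and MYL11 (384), MYL6B (126; 12.3% of exon bases shared) and the embryonic MYL4 (52.5) led, with the embryonic heavy chain MYH3 at 168, 139.8, 157 and 161 CPM (96.3 TPM). The other heavy chains were much lower: perinatal MYH8 at 7.63 TPM, slow MYH7 at 7.62, fast MYH2 at 2.26, and adult fast MYH1 and MYH4 at 0.0399 and 0. MYL2, MYL3, MYH4 and MYBPC3 had no count in any library.

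Of the 33 thin filament and Z-disc genes listed, 25 were expressed and 4 stayed under 1 CPM in every library. Their median was 7.94 TPM, against 6.46 for all protein-coding genes. TNNT1, the troponin T of slow muscle, was highest at 757, 654, 692 and 664 CPM (1311 TPM), against 3.29 TPM for TNNT3 of fast muscle. The same held for troponin I, with slow TNNI1 at 81.2 TPM and fast TNNI2 at 2.41, but not for troponin C, where the fast TNNC2 was at 152 TPM and the slow and cardiac TNNC1 at 44.6. The sarcomeric actin of the cells was ACTC1, the cardiac form also used in embryonic muscle, at 466, 504, 517 and 500.3 CPM. The adult skeletal actin ACTA1 was at 2.36, 2.22, 1.21 and 2.06 CPM, a level of 5.40 TPM against 444 for ACTC1. Desmin, tropomyosin TPM2 (351 TPM) and filamin FLNC (340.3) were the other leading members. Titin (TTN, 15.6% of exon bases shared) ranged from 285 CPM in replicate 1 to 484 in replicate 4 and is taken up again with the spread.

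Calcium handling and the postsynaptic side of the neuromuscular junction were well represented. Of the 26 genes listed, 19 were expressed and 5 stayed under 1 CPM in every library, with a median of 14.1 TPM. The acetylcholine receptor subunits CHRNA1 (468, 493, 495 and 523 CPM, 419 TPM) and CHRND (211 TPM) led, with CHRNB1 at 52.8 (14.6% shared) and the fetal subunit CHRNG at 40.6 TPM. CHRNE, the subunit that replaces CHRNG in adult muscle, averaged 0.0589 CPM, but 54.4% of its exon bases are shared with another gene. JSRP1 of the junctional reticulum (230.3 TPM; 12.1% shared), the calcium pump ATP2A2 (157) and the coupling protein STAC3 (109.5; 10.97% shared) completed the highest members. The slow and ubiquitous pump ATP2A2 exceeded the fast ATP2A1 (32.7 TPM), and CASQ1, TRDN, CACNG1, SLN and PVALB, all genes of mature fibres, stayed under 1 CPM on average. 

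Of the 14 genes of muscle metabolism, 8 were expressed and 4 stayed under 1 CPM in every library, with a median of 21.9 TPM. LDHB (2555 TPM; 33.4% shared) exceeded LDHA (408), and brain creatine kinase CKB (178) exceeded the muscle form CKM (58.6). ENO3, the muscle enolase, was at 54.2 TPM against 1617 for ENO1. Myoglobin (MB) averaged 0.445 CPM and the mitochondrial creatine kinase CKMT2 0.0605. Of the 18 genes of the dystrophin complex, 13 were expressed and 3 stayed under 1 CPM in every library, with a median of 18.1 TPM. The laminin chain LAMA2 (95.8 TPM), dystroglycan DAG1 (67.1), syntrophin SNTB1 (53.8; 10.7% shared), utrophin UTRN (41.3) and SGCB (35.7) were highest, with dystrophin (DMD) at 18.1 TPM. SSPN, sarcospan, had no count, with 13.4% of exon bases shared.

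**Figure D2:**
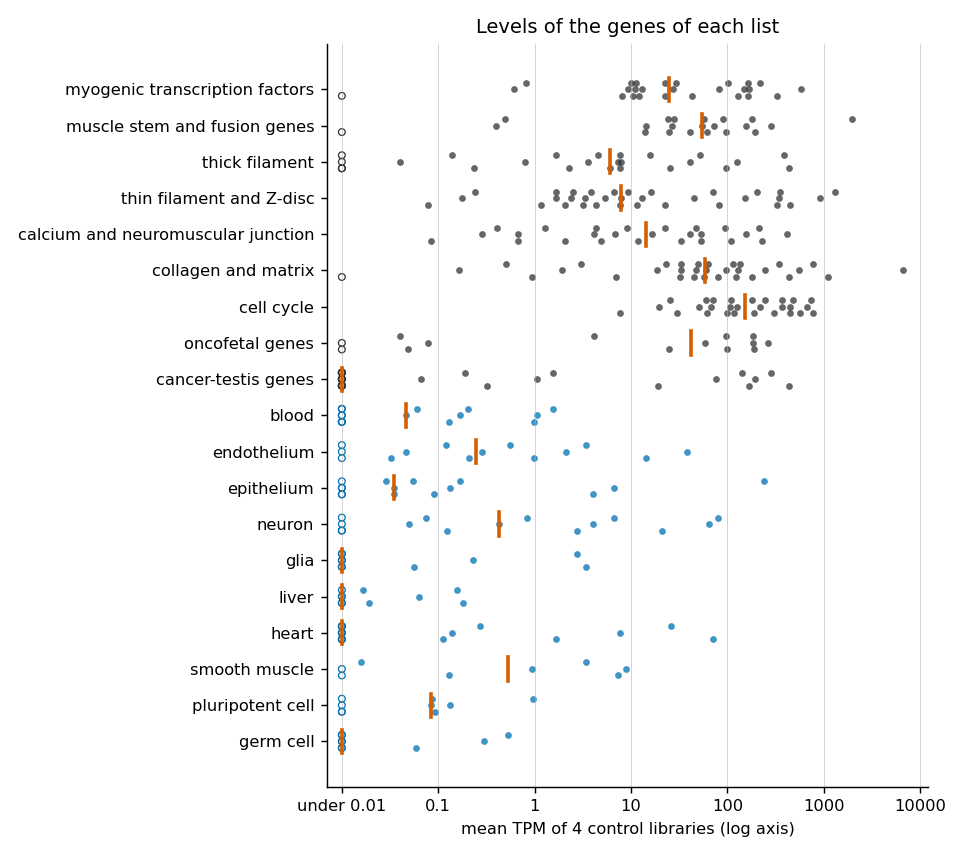
Mean TPM (log axis) of every member of 19 lists, with muscle, matrix and tumour lists in black and lists of other lineages in blue, open circles for values under 0.01 and an orange bar at the list median. The medians of the muscle lists run from 6.08 TPM for the thick filament to 54.5 for stem and fusion genes, while those of the other lineages shown stay under 1. Not all lineage lists are drawn. Of those left out, cartilage had the highest median, 1.83 TPM, and fibroblasts had 0.946. The median of all protein-coding genes, not drawn, is 6.46 TPM.

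Promoter windows of muscle genes were compared with all windows because myogenic factors are known to bind the E-box CAGCTG. Among the genes of the thick filament, thin filament and junction lists, CAGCTG stood in 21 of 57 (36.8%), against 17.5% of all windows. The looser CANNTG, which contains CAGCTG, stood in 46 of 57 (80.7%) against 64.4%. TATAAA stood in 16 of 57 (28.1%), against 9.71%. Genes picked because they carry a motif are shown with the 60 bases around it and the marked match in capitals. They are 3 abundant muscle genes, myostatin, and CKM of the metabolism list, which has the same E-box as CHRNA1. Myostatin holds another TATAAA at the end of its window, left in lower case. MYOG, searched in the same way, had neither TATAAA nor CAGCTG before its start on its own strand.
TNNT1 (chr19:55149207-55149266, minus strand, motif at -29 from the start): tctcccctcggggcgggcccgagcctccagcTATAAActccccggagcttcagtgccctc
ACTC1 (chr15:34795550-34795609, minus strand, motif at -31): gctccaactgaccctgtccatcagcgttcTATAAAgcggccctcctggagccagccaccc
MSTN (chr2:190062730-190062789, minus strand, motif at -30): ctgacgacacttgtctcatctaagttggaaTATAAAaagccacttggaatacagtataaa
CHRNA1 (chr2:174764513-174764572, minus strand, motif at -75): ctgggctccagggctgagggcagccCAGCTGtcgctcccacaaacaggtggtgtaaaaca
CKM (chr19:45322940-45322999, minus strand, motif at -99): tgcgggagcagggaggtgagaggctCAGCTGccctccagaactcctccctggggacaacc
CHRNA1 was at 419 TPM and CKM at 58.6, so the same letters stood at genes of very different level.

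Markers used to tell rhabdomyosarcoma subtypes apart were one-sided. HMGA2, a chromatin protein of embryonic and tumour tissue, was at 631, 719.6, 673 and 707 CPM, fibrillin FBN2 at 92.6, 101, 105 and 117 and EGFR at 40.5, 53.3, 53.0 and 56.7, all known as markers of the fusion-negative subtype. TFAP2B, NOS1 and OLIG2, known from the fusion-positive subtype, had no count in any library. ALK averaged 0.771 CPM and CDH3 0.409 (11.1% shared). The floor of 3 counts over the 4 libraries limits the genes without a count to at most 0.173 CPM.

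Among receptor tyrosine kinases FGFR4 was the most abundant per length. Of the 58 listed, 33 were expressed and 20 stayed under 1 CPM in every library. Their median was 3.70 TPM, against 6.46 for all protein-coding genes. The ephrin receptors EPHA2 (90.1 TPM) and EPHA7 (67.4), the planar polarity receptor PTK7 (83.7) and the collagen receptor DDR2 (83.2) followed. FGFR1 was at 59.3 TPM, FGFR3 at 3.69 and FGFR2 at 0.460. IGF1R was at 17.4 TPM, and its ligand IGF2 at 207 CPM, with 75.0% of exon bases shared with another annotated gene. PDGFRA was at 0.144 TPM (15.8% shared) beside 3.72 for PDGFRB, and KIT, CSF1R, NTRK2 and EPHA6 had no count. 

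Genes known to be altered in this tumour were nearly all expressed. Of the 25 listed, 24 were expressed and 1 stayed under 1 CPM in every library, with a median of 28.2 TPM. The kinase CDK4 (369 TPM; 43.2% shared), MYC (316), NRAS (282), the phosphatase PTPN11 (254) and beta-catenin CTNNB1 (232) were highest. MYC was at 226, 243, 229 and 223 CPM and MYCN at 2.83, 1.73, 2.18 and 3.70. Per length that is 316 TPM for MYC and 4.12 for its paralog. The cell cycle inhibitor CDKN2A, often deleted in tumours, was expressed at 74.4, 58.9, 61.7 and 59.4 CPM and its neighbours CDKN2B and MTAP at 19.4 and 49.3 CPM. In the surrounding stretch of chromosome 9p21, 8 of 12 genes were expressed, and the interferon genes IFNA1, IFNB1 and IFNE had no count.

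All 28 cell cycle genes were expressed, with a median of 153 TPM. PCNA of the replication fork (763 TPM), the mitotic cyclin CCNB1 (743), cyclin CCND2 (666; 13.8% shared), topoisomerase TOP2A (565) and CDK6 (484) were highest. CDK6, partner of the D cyclins, had 1295, 1475, 1457 and 1536 CPM, and CCND2 1096, 1167, 1175 and 1193 CPM. CDKN1C was the lowest at 7.72 TPM. 

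Oncofetal genes fell into present and absent members. Of the 14 listed, 9 were expressed and 5 stayed under 1 CPM in every library, with a median of 41.7 TPM. GPC3 (265 TPM), HMGA1 (191), LIN28B (185), HMGA2 (182) and IGF2BP1 (99.1) were highest. LIN28B, which blocks maturation of let-7 microRNAs, was at 249.7, 293, 263 and 271 CPM, whereas its paralog LIN28A had no count. The imprinted genes were led by NNAT, neuronatin, at 348, 308, 318 and 330.1 CPM (1007 TPM), with GNAS (244), NDN (211), PEG10 (189) and IGF2 after it. H19, which shares an imprinted domain with IGF2, averaged 0.919 CPM, and DLK1 averaged 0.0514.

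Most cancer-testis genes were silent and a few were abundant. Of the 25 listed, 7 were expressed and 17 stayed under 1 CPM in every library. PRAME was at 421, 376, 395 and 408 CPM, CTAG2 at 69.2, 69.5, 77.2 and 60.02, MAGEA12 at 97.7, 86.6, 86.1 and 92.1, MAGEA3 at 69.2, 72.01, 79.3 and 67.6 and MAGEA6 at 72.5, 59.2, 67.0 and 56.5. CTAG1B, MAGEA1, MAGEA4, MAGEC1, MAGEC2, SSX1 and SSX2 were among those without a count. Several of these genes exist as near-identical copies, so the split between MAGEA3 and MAGEA6, and zeros such as that of CTAG1B, are uncertain. Of the 20 surface target genes, 16 were expressed and 1 stayed under 1 CPM in every library, with a median of 17.0 TPM. GPC3, FGFR4, the death receptor TNFRSF10B (123 TPM), EPHA2 and NCAM1 (71.8) were the highest of these cell surface proteins under study as drug targets, with CD276 at 56.6. Of the 17 antigen presentation genes, 13 were expressed and 4 stayed under 1 CPM in every library, with a median of 17.2 TPM. B2M, the light chain of class I molecules, was at 751, 718, 704 and 706 CPM. Per length HLA-C was at 28.1 TPM and HLA-B at 17.0 (18.9% shared), while HLA-DRA, HLA-DRB1 and CD74 of class II had no count.

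Most of the listed matrix genes were expressed. Of the 32 collagen and matrix genes listed, 28 were expressed and 2 stayed under 1 CPM in every library, with a median of 58.9 TPM. The whole collagen family, listed or not, had 28 of 44 genes expressed, a share near the 58.8% of all protein-coding genes. After COL3A1 came COL5A2 (1101 TPM), tenascin TNC (770.1), SPARC (553) and the laminin chain LAMC1 (439). The chains of type I collagen, the usual fibroblast product, were low: COL1A1 was at 52.1, 54.3, 61.2 and 54.1 CPM and COL1A2 at 2.36, 0.493, 0 and 2.67, which is 23.2 and 0.509 TPM against 6579 for COL3A1. COL2A1 of cartilage was at 88.1, 75.2, 80.5 and 74.4 CPM. FAP had no count and DCN and LUM averaged 0.509 and 0.693 CPM.

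Genes of other lineages were largely silent. Over 16 lists, 131 of 178 genes stayed under 1 CPM in all 4 libraries, 73.6%, against 36.0% of all protein-coding genes, and 69 had no count. The lists of liver (10 genes) and germ cells (9) had no member at 1 CPM in any library. Of 15 blood genes none passed in all 4, and their summed level was 1.69 to 2.36 CPM per library. PTPRC averaged 0.103 CPM, and CD3E, HBB and HBA1 had no count. CD68 also had none, but 85.8% of its exon bases lie in another gene. 

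Expressed members numbered 38 of the 178, and most stood among silent members of their list. In the endothelial list, TEK was at 50.9, 42.9, 37.5 and 47.1 CPM and FLT1 at 39.8, 40.9, 48.4 and 44.8, while CDH5, ERG and LYVE1 had no count and PECAM1 and KDR averaged 0.536 and 0.0514. In the epithelial list, KRT18 was at 194, 189.9, 197 and 165 CPM (16.3% of exon bases shared) and KRT8 at 11.1, while EPCAM, KRT5 and KRT14 had no count and CDH1 averaged 0.0514. In the neuronal list, MAP2 was at 171, 188, 179 and 187 CPM and NEFL at 91.9, 79.4, 86.1 and 79.5 (11.3% shared), while STMN2, GAP43 and ELAVL4 had no count and SYN1 averaged 0.113. In these lists 4 of 14 endothelial, 3 of 15 epithelial and 6 of 15 neuronal genes were expressed, and 9, 12 and 7 stayed under 1 CPM in every library.

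In the heart list TNNT2, which embryonic skeletal muscle also uses, was at 117, 127, 126 and 127 CPM and NKX2-5 at 14.8, 11.3, 11.6 and 14.8, while GATA4, TBX5 and MYL7 had no count. SOX10 and S100B of the glial list had none either. Cartilage had the largest share expressed, 6 of 9 genes, led by COL2A1 and otherwise at 2.45 TPM (SOX9) or less. In that list 33.3% of genes stayed under 1 CPM in every library, against 36.0% of all protein-coding genes, so it did not fall short. The fibroblast list came next, with 6 of 13 genes expressed and COL3A1, S100A4 and THY1 at its head. The summed level of the smooth muscle list was 27.5 to 36.5 CPM, with SMTN as its main member and MYOCD without a count. CEBPA (11.7 CPM; 43.4% shared) was the 1 expressed member of the adipocyte list, PAX2 (9.63) that of the list for gut, pancreas, lung and kidney. Among pluripotency genes POU5F1 averaged 0.680 CPM, NANOG 0.174 and SOX2 0.0514.

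HOX genes, which carry the positional identity of a cell, were looked at after their values had been seen. 31 of 39 were expressed and 4 stayed under 1 CPM in every library. The highest per length were HOXD13 (54.6 TPM), HOXD8 (45.1), HOXB7 (37.5), HOXD9 (36.7), HOXA11 (35.1; 31.1% shared) and HOXA10 (35.0; 26.3% shared). HOXD13, a gene of the posterior end of its cluster, was at 28.5, 32.6, 23.5 and 34.3 CPM, whereas HOXD12 beside it averaged 0.300 and HOXB1 had no count. In cluster A, HOXA9 to HOXA11 lay between 27.7 and 35.1 TPM and HOXA2 to HOXA4 at or under 2.32. In cluster C all of HOXC9 to HOXC13 were expressed, from 12.8 to 18.1 TPM.

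Among long non-coding RNAs the highest per length were GAS5 (709 TPM), ENSG00000283907 (672), SNHG29 (662; 17.8% shared), NORAD (512) and SNHG5 (396). GAS5, SNHG29 and SNHG5 are hosts of small nucleolar RNAs. NORAD, which binds PUMILIO proteins, had 671, 668, 659 and 659 CPM. ENSG00000283907, a gene annotated as antisense, had 54.9, 36.5, 43.3 and 187 CPM, with replicate 4 far above the others. The highest pseudogenes were ENSG00000237550 (987 TPM), MTATP6P1 (234), RPS2P5 (186), GPX1, which this annotation lists as a polymorphic pseudogene (151), and CYP4F32P (126). Reads of a parent gene can fall on its copy, so these levels are uncertain. MTATP6P1, a nuclear copy of a mitochondrial gene, followed the mitochondrial genes in being lowest in replicate 1, at 2.12, 62.4, 63.1 and 26.9 CPM.

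The spread between the libraries was compared with counting error. For each gene with at least 20 summed counts, a chi-square test asked whether its 4 counts followed the library totals. After Benjamini-Hochberg adjustment at 0.05, 856 of 13669 genes, 6.26%, varied more than counting error. The chi-square over its 3 degrees of freedom had a median of 1.16. Under counting error alone its average is 1 and its median lies lower, so 1.16 is not to be set against 1. By edgeR the biological coefficient of variation was 7.65%. For protein-coding genes of 20 to 100 CPM the median coefficient of variation between libraries was 7.68%, with 7.18% from counting; from 1000 CPM up it was 4.01%, with 1.30%. Replicate 1 was the library farthest from the median in 453 of the called genes, and without it 241 genes were called and the coefficient was 5.74%. Of those, 240 were also called with all 4.

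**Figure D3:**
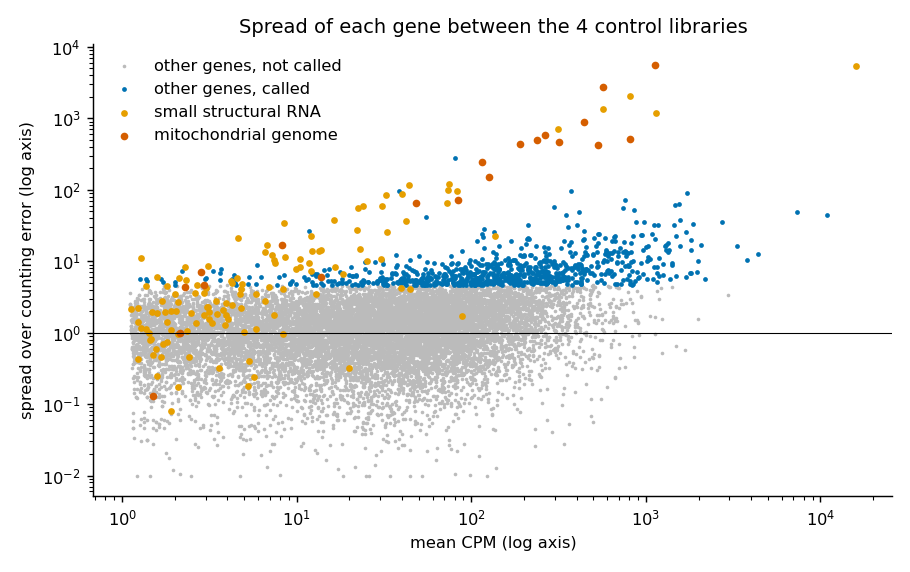
Chi-square over degrees of freedom (spread over counting error, log axis) against mean CPM (log axis) for each tested gene, with genes at or under 0.01 drawn at 0.01 and the line at 1 for counting error. The highest points are mitochondrial and small structural RNA genes, up to 5676 for MT-RNR2 and 5502 for RN7SL2.

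Mitochondrial genes had the largest spread of any class, with a median ratio to counting error of 199 over 20 tested genes. The mitochondrial mRNAs took 0.0801, 0.443, 0.452 and 0.297% of counts in replicates 1 to 4, and all 13 were lowest in replicate 1. MT-ATP6, a subunit of ATP synthase, had 14.4, 409, 419 and 212 CPM and MT-CO1 of cytochrome oxidase 362, 1038, 1014 and 822 CPM, so replicate 1 was below the others by very different factors for the 2 genes. MT-ND6, which lies on the other strand of that genome from the remaining 12 mRNAs, had 8.95, 11.6, 16.0 and 18.7 CPM. The mitochondrial ribosomal RNAs split the libraries differently: MT-RNR2 had 81.0, 1799, 112 and 2509 CPM and MT-RNR1 77.0, 784, 80.3 and 1321, low in replicates 1 and 3 and high in 2 and 4.

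Small structural RNAs varied in yet another order. The spliceosomal snRNAs took 0.319, 0.0904, 0.144 and 0.0719% of counts, and snoRNAs with scaRNAs 0.429, 0.197, 0.260 and 0.164%, highest in replicate 1 and lowest in replicate 4 in both classes. RNU4-2 of the spliceosome had 1707, 462, 715 and 362 CPM, SNORA73B 1932, 813, 1096 and 698 and SNORD3A, the RNA that guides early cuts of ribosomal RNA, 615, 203, 337 and 98.9. SCARNA7 was steadier at 91.6, 82.1, 95.5 and 85.7 CPM.

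Among other genes of at least 20 CPM the largest spreads against counting error, after ENSG00000283907 and MTATP6P1, were those of TTN, RPS18, MACF1, RPL41, RPL37A, H4C11, DYNC1H1, PRKDC, DST, EEF1A1, COL3A1, MALAT1 and the long transcript HELLPAR. The 5 of them with the longest coding transcripts were lowest in replicate 1 and highest in replicate 4. TTN had 285, 318, 409.5 and 484 CPM, MACF1, a linker of actin and microtubules, 639, 709, 809.8 and 893. The dynein heavy chain DYNC1H1 had 659.7, 661, 779.6 and 856, the DNA repair kinase PRKDC 732, 837, 884 and 972 and the cytoskeletal linker DST 344, 397, 416 and 505. Ribosomal protein genes went the other way, with RPS18 at 1979, 1527, 1715 and 1647 CPM, RPL41 at 1735, 1364, 1556 and 1497 and RPL37A at 1657, 1304, 1483 and 1421, highest in replicate 1 and lowest in replicate 2. H4C11 was lowest in replicate 4, at 309, 363, 299 and 214 CPM. The ratio grows with the counts, so that abundant genes are called at smaller differences: COL3A1 was called with a coefficient of variation of 3.05%.

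Ribosomal protein genes shared this pattern as a class, which is also an abundant and therefore well-measured one. 57 of 85 were called, against 6.26% of all tested genes, and 28 of 85 when replicate 1 was left out, against 1.83% of all genes tested at that setting. Of 83 at 20 CPM or more, 73 were highest in replicate 1 and 59 lowest in replicate 2. For all protein-coding genes at that level 27.0% were highest in replicate 1. Histone genes were called in 29 of 57 with all libraries and in 8 of 56 without replicate 1, and 41 of 56 were highest in replicate 1. The thick and thin filament genes, which hold both short and very long transcripts, were called in 4 of 44, or 2 of 42 without replicate 1. Long non-coding genes were called in 21 of 1027, or 9 of 851 without it. 

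Exon length tracked the difference between libraries. Protein-coding genes of at least 10 CPM, without histones, were grouped by exon length after the pattern had been seen, and each library was set against the mean of the other 3. Replicate 1 was above the others by a median log2 difference of 0.19 in the 50 genes of at most 1 kb and was at -0.081 in the 2379 genes over 8 kb. Replicate 4 had the reverse order, from -0.051 to 0.069, and replicate 2 went from -0.15 to 0.0015. Replicate 3 stayed between -0.012 and 0.01. Of the 2091 genes over 8 kb at 20 CPM or more, 48.4% were lowest in replicate 1, against 32.5% of all protein-coding genes at that level, and 41.8% were highest in replicate 4, against 27.6%. Among replicates 2 to 4 alone the pattern differed. Replicate 4 was at 0.0094 in the shortest class, at -0.0083 from 2 to 4 kb and at 0.048 over 8 kb, and replicate 3 went from 0.074 to -0.035. Fragment size and RNA integrity of the libraries are not given in the sources used here, and their part was not tested.

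**Figure D4:**
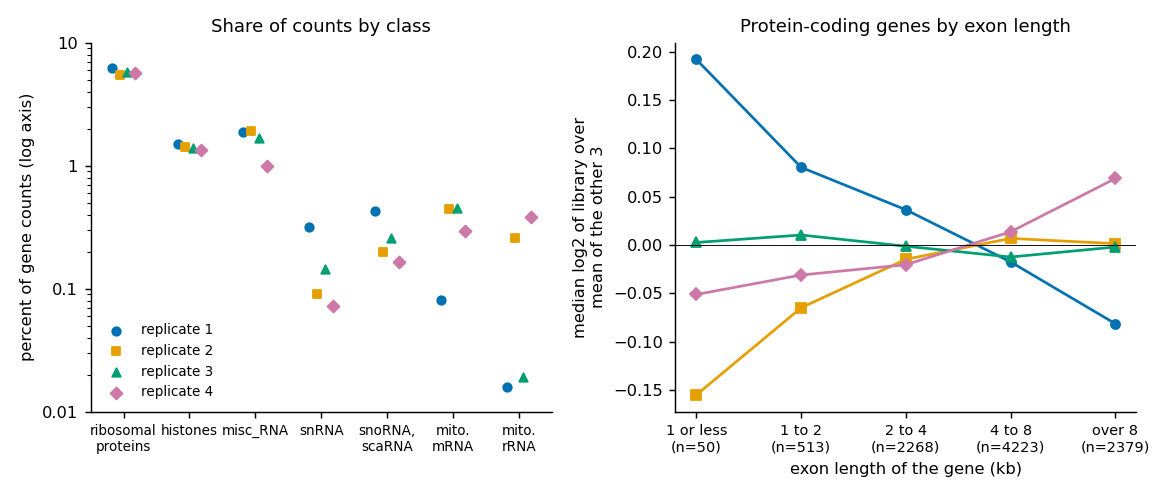
Left, percent of gene counts (log axis) of 7 classes in each control library. Right, median log2 ratio of each library to the mean of the other 3 for protein-coding genes by exon length in kb, where replicate 1 falls from 0.19 to -0.081 and replicate 4 ends highest at 0.069.

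Spearman correlations across the tested genes were 0.989 to 0.993 over the 6 pairs, a description across genes that are not independent. The pairwise chi-square over degrees of freedom, as a mean over genes, ran from 2.39 for replicates 2 and 3 to 6.34 for replicates 1 and 4. Its median over genes was much lower, from 0.591 for replicates 2 and 4 to 0.883 for replicates 1 and 4. Under counting error alone that median also lies under 1, so medians under 1 do not show a spread within counting error. Genes of very large spread raise the mean, so it does not describe the typical gene. By the mean, every pair thus differed by more than sampling noise, and none was counted as a copy. The labels give no batch, date or lane for these samples.

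One property of the counting bears on every silent gene and on the class shares above. Of 244 protein-coding genes whose exon bases all lie within exons of another gene on the same strand, 4 had any count (1.64%). Of 17 whose bases are all shared on the opposite strand only, 12 had a count (70.6%), as did 75.4% of the 11083 that share none. RN7SL1 and RN7SK, abundant RNAs in human cells as background knowledge has it, were both at 0 counts with 100% of their bases shared on the same strand, whereas RN7SL2 shares none. A count of 0 for a gene inside another on the same strand thus says nothing about its level here. Class shares include such genes and can be understated where they do. The histone gene H3C4, with 100% of its bases shared on the same strand, was at 0 counts. The shares of exon bases given above pool both strands. Those of GAPDH, TUBB and HOXA11 lie on the opposite strand only and that of TTN nearly so, while those of LDHB and RPL13A lie on the same strand.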

How the data were processed

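Counts per gene of the 4 control libraries were used as the authors deposited them, 1 file per library over 58302 genes. Per the submitters' processing notes, FastQC, HISAT2, HTSeq and DESeq2 were used with GRCh38 (hg38); versions, annotation and the strand setting of counting are not given in the sources used here. Gene identifiers matched GENCODE release 29 for 58039 genes, which gave names, exon lengths and shared exon bases. CPM and TPM were computed from the counts. The spread was tested by chi-square (scipy 1.17.1) with Benjamini-Hochberg adjustment, a step checked on simulated data, and described by the common dispersion of edgeR 4.0.16 in R 4.3.3, with pandas 2.3.3, numpy 2.4.6, matplotlib 3.10.9 and Python 3.11.15. Library totals of 4245571, 4055205, 4134308 and 4865161 set the precision. Promoter letters are from RefSeq (GRCh38.p14), 250 bases before to 50 after a start.

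Named were the 5 markers, PROX1, the 25 genes of highest CPM, the 15 coding genes of highest TPM, up to 5 members of highest TPM in each list with examples of silent ones, the 5 highest long non-coding RNAs and pseudogenes, and the 15 most variable genes of at least 20 CPM. Further single genes, the HOX genes, the length classes and the overlap classes were chosen after values were seen. The markers and lists were chosen with earlier results of these data known. The PROX1 hairpin libraries were not used. Some genes of the lists are not reported here. Alternatives were another expression threshold, TMM library sizes, other filters and thresholds, TPM or protein-coding genes only, promoter classes by TPM, and leaving out each library.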

Additional observations from a re-analysis of the deposited data

Results flagged for a closer look

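In each of 87 sets of 4 CPM values, the gap of the outermost library to its nearest value was divided by the whole range. In 6 sets this exceeded Dixon's critical value for 4 values. Chance gives about 1 in 20, and 6 of 87 is close to that, so these sets are listed as a description only. Replicate 1 was the library apart in 4 of them. It was high for the collagen COL3A1, at 11388, 10764, 10739 and 10678 CPM (gap ratio 0.878), and for the histone gene H3C7, at 467, 409.8, 410.2 and 403 CPM (0.893). It was low for the actin ACTB, at 1538, 1727, 1726 and 1755 CPM (0.865), and for the respiratory chain subunit MT-ND3, at 27.8, 98.9, 109 and 97.2 CPM (0.854).

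Replicate 4 was apart for the other 2. It was high for the histone gene H3C2, at 529, 528, 525 and 561 CPM (0.892), although other abundant histone genes such as H4C4 and H4C11 were lowest in that library. It was also high for ENSG00000283907, at 54.9, 36.5, 43.3 and 187 CPM (0.878). The other 3 libraries lay between 36.5 and 54.9 CPM for that transcript.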

How the results depend on the processing

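Of 121 values recomputed under an alternative, 95 stayed close to the reported one and 26 moved; causes were not tested beyond what each alternative itself changes. Without replicate 1, the number of genes varying beyond counting error fell from 856 to 241; over the libraries left out in turn it was 241 to 858, and at an adjusted threshold of 0.01 it was 496. With 3 libraries the test is weaker than with 4. The biological coefficient of variation was 5.74 to 8.44% with 1 library left out. The top 100 genes took 15.1% without mitochondrial and small structural RNA genes and 15.3% over protein-coding genes. As shares of TPM, ribosomal proteins were 8.58%, translation factors 2.04%, histones 9.68%, collagens 0.901%, filament and Z-disc genes 0.558% and mitochondrial mRNAs 1.41%. As shares of protein-coding counts, translation factors were 2.49%, collagens 1.68% and filament genes 0.540%. Silent lineage genes numbered 69 where 0 counts were required. The median Spearman correlation between libraries was 0.991, and 0.988 over genes of at least 10 CPM. Among promoters of the most abundant genes, classes by TPM gave 9.13% with TATAAA and 9.77% with a TOP start, and genes with 1 listed start gave 73.0% with GGGCGG. With small structural RNA in the total, desmin was at 683 TPM and the other 4 markers fell alike. This alternative was chosen after seeing the data, as were the coefficient of variation with its libraries left out, the single-start windows, a mean under 1 CPM for silent genes (138) and the variability test without mitochondrial and small structural RNA genes (748 genes called). With the longest transcript in place of all exons, DES ranked 180, MYOG 702, FGFR4 1198, MYOD1 1617 and PAX7 6588.

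No paired analysis was possible because a single group was described. At this depth genes under 1 CPM rest on a few counts, and for protein-coding genes of 1 to 5 CPM the median coefficient of variation was 30.2%, with 30.9% from counting alone. Exon lengths are unions over listed transcripts, so a gene expressed as a short isoform has an understated TPM.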

Other observations

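All genes of the lists for glycolysis, cytoskeleton and chaperones were expressed. Per length, glycolysis was led after GAPDH by TPI1 (1784 TPM), ENO1 (1617) and PKM (870.2), with ALDOC the lowest at 2.92 TPM (10.1% of exon bases shared). Among intermediate filaments, nestin (NES), a filament of progenitor cells, was at 1409, 1311, 1369 and 1265 CPM and vimentin (VIM; 24.4% of exon bases shared) at 1189, 1219, 1203 and 1154 CPM. Their levels of 991 and 950.2 TPM lay beside that of desmin at 910.4 TPM. The 7 listed subunits of the chaperonin that folds actin and tubulin lay between 656 TPM for CCT5 and 1278 for CCT3. The stress-induced HSPA1A was at 1.41, 1.73, 1.94 and 2.67 CPM. Per length it was at 3.21 TPM against 3203 for its constitutive relative HSPA8, although HSPA1A has a near-identical copy, HSPA1B, at 64.2 TPM (36.5% shared).

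Chromosomes differed in the share of their protein-coding genes that was expressed, from 46.5% on chromosome 21 and 48.1% on X to 63.9% on chromosome 14. Chromosome 14 took 4.58, 4.64, 4.405 and 3.74% of counts in replicates 1 to 4 and was the nuclear chromosome with the widest spread. It carries RN7SL2, which had 18578, 19074, 16648 and 9707 CPM.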
